A study of Mus musculus with 4 samples.

Results

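Complement and coagulation genes encode the plasma proteins of the complement cascade and of blood clotting. The 36 genes described here, 20 of complement and 16 of coagulation, were taken by name from a fixed list. They were looked up among the 32285 genes of single-cell count tables of mouse liver. The list was chosen with earlier results of these data known. All livers came from male offspring, and RNA was counted cell by cell with the 10x Genomics 3′ droplet method, in which each captured RNA molecule carries a unique molecular identifier (UMI). There were 4 groups with 1 library each. The fetal IHG library held livers of fetuses at E18.5, late in gestation, whose mothers had intrauterine hyperglycemia, and the fetal Ctrl library held livers of fetuses of the same age from control mothers. The adult IHG and adult Ctrl libraries held livers of 8-week-old offspring of hyperglycemic and of control mothers. Material was pooled from 3 pregnant mice for a fetal library and from 3 adults for an adult library, so animals cannot be separated. The strain and the way hyperglycemia was brought about are not given in the sources used here. The series asked how the liver's inflammatory features differ in offspring of hyperglycemic mothers.

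Complement is a chain of proteases and pore-forming proteins that tags and lyses foreign or damaged cells. It is started by antibody (classical pathway), by sugar patterns (lectin pathway) or by slow spontaneous turnover (alternative pathway), and all of these meet at C3. Clotting is a second protease chain that ends in thrombin and fibrin, is held back by antithrombin and the protein C system, and is undone by plasmin. Hepatocytes make most of these plasma proteins, while macrophages, endothelial cells and stromal cells make some of them locally, and synthesis of many of them shifts in inflammation.

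The cells that held a gene differed within the set, and 4 promoters are shown because their genes were held by different cells. Vtn, encoding vitronectin, was a hepatocyte transcript, C3 was held by hepatocytes, neutrophils and mesothelial cells, Cfp, encoding properdin, by macrophages and other myeloid cells, and Pros1, encoding protein S, by endothelial cells. Each sequence runs 5′ to 3′ on the gene's strand from 250 bases before to 50 bases after the RefSeq start in GRCm38.p6, the build also called mm10. Capitals mark matches on either strand to GTTAAT (one arm of the HNF1 site), TTGCNNAA (the C/EBP site) or GAGGAA (the PU.1 site). The windows are chr11:78498870-78499169 on the plus strand for Vtn, chr17:57228087-57228386 on the minus strand for C3, chrX:20931506-20931805 on the minus strand for Cfp and chr16:62854057-62854356 on the plus strand for Pros1.
Vtn: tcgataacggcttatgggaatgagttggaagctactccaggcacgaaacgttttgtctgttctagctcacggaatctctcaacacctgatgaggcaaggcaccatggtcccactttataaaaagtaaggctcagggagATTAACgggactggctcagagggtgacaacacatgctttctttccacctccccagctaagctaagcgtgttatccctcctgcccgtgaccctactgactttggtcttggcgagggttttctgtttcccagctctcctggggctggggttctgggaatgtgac
C3: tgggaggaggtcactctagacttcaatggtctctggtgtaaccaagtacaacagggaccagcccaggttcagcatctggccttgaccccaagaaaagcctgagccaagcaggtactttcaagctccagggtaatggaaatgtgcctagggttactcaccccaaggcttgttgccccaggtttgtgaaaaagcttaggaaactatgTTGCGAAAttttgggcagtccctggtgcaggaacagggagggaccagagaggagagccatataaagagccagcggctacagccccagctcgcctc
Cfp: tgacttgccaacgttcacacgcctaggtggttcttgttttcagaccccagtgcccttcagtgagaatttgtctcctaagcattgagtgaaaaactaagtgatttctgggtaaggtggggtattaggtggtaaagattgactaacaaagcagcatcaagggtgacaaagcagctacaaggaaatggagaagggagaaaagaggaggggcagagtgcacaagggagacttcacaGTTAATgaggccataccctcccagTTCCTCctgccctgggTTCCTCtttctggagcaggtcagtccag
Pros1: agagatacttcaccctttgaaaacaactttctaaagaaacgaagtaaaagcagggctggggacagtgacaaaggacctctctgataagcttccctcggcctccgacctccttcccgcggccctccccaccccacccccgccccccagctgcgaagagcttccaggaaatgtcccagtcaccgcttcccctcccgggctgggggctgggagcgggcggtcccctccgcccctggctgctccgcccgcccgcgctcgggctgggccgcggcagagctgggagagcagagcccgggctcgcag
Of the 36 genes, 27 had such a window in the RefSeq promoter set used here. C2, C4b, Masp1, Cfb, Serping1, Cfi, Kng1, Proc and Plg had no entry in that set. GTTAAT was found in 8 of the 27 windows (C1ra, Cfp, Hc, C8a, C8b, Vtn, F2 and F13b), or 29.6%, and in 7.10% of all 32851 windows. TTGCNNAA was found in 9 of the 27 (C1ra, C1s1, C3, C9, Klkb1, F11, F9, Serpinc1 and Cpb2), or 33.3%, and in 10.8% of all windows, and GAGGAA in 3 of the 27 (C1ra, Cfp and F7), or 11.1%, and in 28.3% of all windows. The Pros1 window held none of the 3 motifs. No marked matches overlapped, and a match describes letters, not bound protein.

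The libraries held 8739 (fetal IHG), 8500 (fetal Ctrl), 6851 (adult IHG) and 5245 (adult Ctrl) barcodes, with medians of 9116, 6645, 2235 and 2558 UMIs, and 7922, 7573, 6457 and 4954 cells were kept. Pairs of libraries shared between 8 and 26 barcodes. The fetal libraries were mostly blood-forming cells, and haemoglobin RNA made up 20.4% of UMIs in fetal IHG and 35.4% in fetal Ctrl. UMIs of each gene were summed per library and cell class and are given as counts per 1000000 UMIs of that class (CPM), with a 95% Poisson interval where a ratio is given. A gene was measured in a class with at least 20 UMIs over both libraries, and called with a difference of at least 2-fold. With 1 library per group there is no replicate check and no test of any difference here, and all intervals and lower limits cover counting error only.

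In the fetal liver most of these genes were hepatocyte transcripts. In hepatocyte-like cells, 116 in IHG and 119 in Ctrl, all 11 hepatocyte markers had UMIs, at 137727 CPM in IHG and 88161 CPM in Ctrl. These cells were 1.46% of cells in IHG and 1.57% in Ctrl, and yet 27 of the 36 genes had at least 50% of their UMIs in them in both libraries. Examples are Kng1 (kininogen, the source of bradykinin), with 90.3% of its UMIs there in IHG and 95.1% in Ctrl, and Vtn, which stops the membrane attack complex from inserting, with 90.5% in IHG and 93.6% in Ctrl. Serpinc1, encoding antithrombin, had 86.4% in IHG and 87.3% in Ctrl. C9, encoding the last pore-forming protein of complement, had 4 UMIs in IHG and 5 in Ctrl in the kept cells, all of them in hepatocyte-like cells.

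Another 8 genes had under 50% of their UMIs in hepatocyte-like cells in both libraries: C2, Masp1, C3, Cfp, C6, F10, F5 and Pros1. C1ra, encoding the C1r protease of the C1 complex, was split, with 39.3% in IHG and 67.6% in Ctrl. C3, the protein on which the complement pathways meet, had only 21.2% of its UMIs there in IHG and 24.9% in Ctrl, while neutrophil-like cells held 3726 UMIs in IHG and 2196 in Ctrl, or 53.3% and 54.6% of the gene's UMIs. The neutrophil level was nevertheless lower than the hepatocyte one in each library, with 214 CPM in IHG neutrophil-like cells against 1249 CPM in IHG hepatocyte-like cells, and 280 CPM against 1068 CPM in Ctrl. Pros1, a vitamin K-dependent cofactor of activated protein C, had 1 UMI in hepatocyte-like cells in IHG and 2 in Ctrl, against 108 and 16 UMIs in endothelial-like cells.

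**Figure D1:**
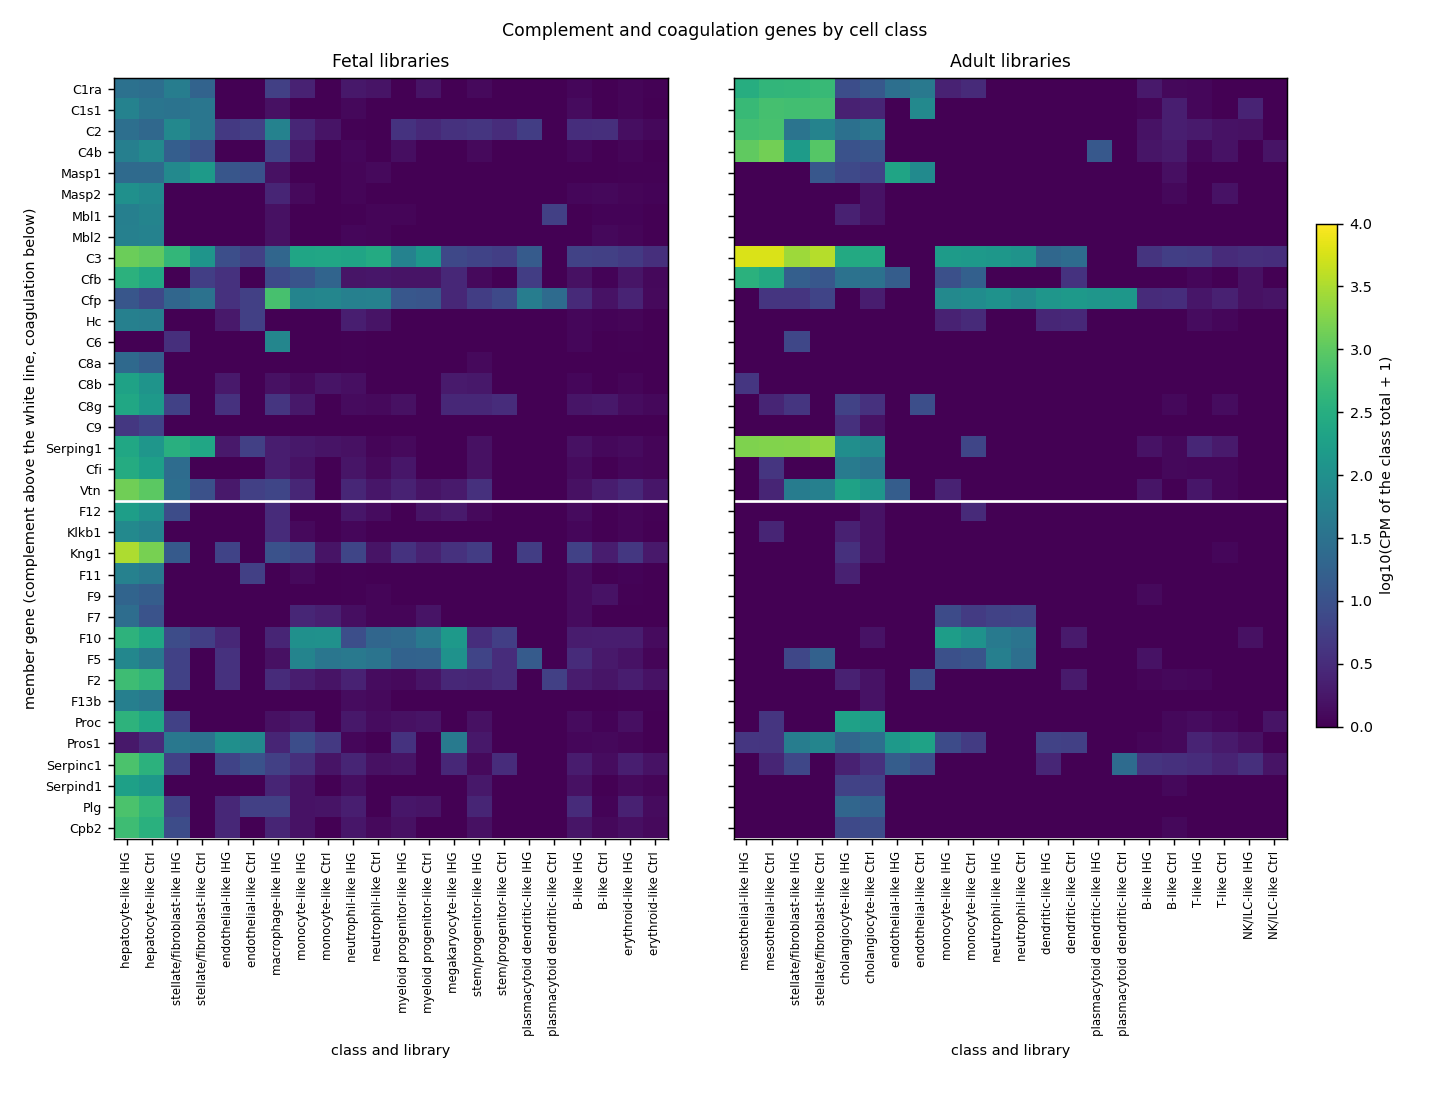
Level of each gene (rows, complement above the white line and coagulation below it) in each cell class of each library (columns), as log10 of the CPM of the class total plus 1, for the fetal libraries on the left and the adult libraries on the right. The fetal hepatocyte-like columns are bright for most genes, the Pros1 row is brightest in endothelial-like cells, and the adult panel has no hepatocyte-like column.

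Low levels in other fetal classes were read against free hepatocyte RNA, which would bring hepatocyte transcripts into every droplet in 1 fixed ratio to the hepatocyte markers. For the 27 genes held mainly by hepatocyte-like cells, erythroid-like cells had 443 UMIs in IHG where that ratio gave 357, and 194 UMIs in Ctrl where it gave 159, or 1.24 and 1.22 times. B-like cells had 1.24 times in IHG and 1.25 times in Ctrl. Neutrophil-like cells had 1.49 times in IHG and 1.53 times in Ctrl. Stem/progenitor-like cells had 1.99 times in IHG (64 UMIs) and 2.35 times in Ctrl, the latter from only 3 UMIs where the ratio gave 1.28. Endothelial-like cells had 1.18 times in IHG (29 UMIs) and 3.72 times in Ctrl (7 UMIs). Of all 36 genes, 13 were measured in erythroid-like cells, including C3 and Cfp, which were not among the 27. All 13 were higher in IHG than in Ctrl, 8 of them at least 2-fold, where 4.97% of all 10179 genes were. All 11 hepatocyte markers were higher in IHG too, with a median log2 ratio of IHG over Ctrl of 1.66. Stellate/fibroblast-like cells had 9.79 times the ratio in IHG and 10.99 times in Ctrl, and monocyte-like cells 2.91 times in IHG and 5.71 times in Ctrl. In stellate/fibroblast-like cells Serping1 held 136 of the 197 UMIs in IHG and 52 of the 65 in Ctrl. In monocyte-like cells Cfb held 36 of the 108 UMIs in IHG and 30 of the 38 in Ctrl. The values of these 2 classes were therefore not spread evenly over the 27 genes.

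In fetal hepatocyte-like cells the set was mostly higher in IHG than in Ctrl. Of the 36 genes 32 were measured, and 28 of them were higher in IHG, with 2 of them at least 2-fold higher (Kng1 and F7) and none at least 2-fold lower, where 10.1% of all 5858 measured genes were at least 2-fold higher and 6.38% at least 2-fold lower. The median log2 ratio of IHG over Ctrl was 0.67 for the 15 measured coagulation genes, all of which were higher in IHG, and 0.39 for the 17 measured complement genes, 13 of which were higher. It was 0.19 for all genes. The 11 hepatocyte markers had a median of 0.90, with 9 higher and 5 at least 2-fold higher, and haemoglobin genes one of -3.07. Cfp (13 UMIs in IHG and 6 in Ctrl), C9, Pros1 and C6 were below the minimum, and C6 had 0 UMIs in each library.

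The cells of this class differed in haemoglobin RNA between the libraries, and that difference moved with the ratios. Haemoglobin genes made up 1.94% of the class's UMIs in IHG and 15.7% in Ctrl. Cells with over 10% haemoglobin UMIs numbered 8 in IHG and 26 in Ctrl, and they held 5.43% of the class's UMIs in IHG and 40.8% in Ctrl. Without them, the median log2 ratio over 108 IHG and 93 Ctrl cells was 0.09 for coagulation genes, with 9 of 15 higher, and -0.20 for complement genes, with 6 of 17 higher, against 0.10 for all 5064 genes measured in those cells. One gene, C4b, was then at least 2-fold lower, where 3.4% of all genes were, and none was at least 2-fold higher, where 7.46% were. In all, 15 of the 32 genes were then higher in IHG, since 13 of the 28 had turned below 0. The hepatocyte markers kept a median of 0.37, with 8 of 11 higher. Counting intervals lay above 0 for 8 complement and 11 coagulation genes over all cells, and for 2 complement and 3 coagulation genes without the haemoglobin-rich cells, where they lay below 0 for 4 complement genes.

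**Figure D2:**
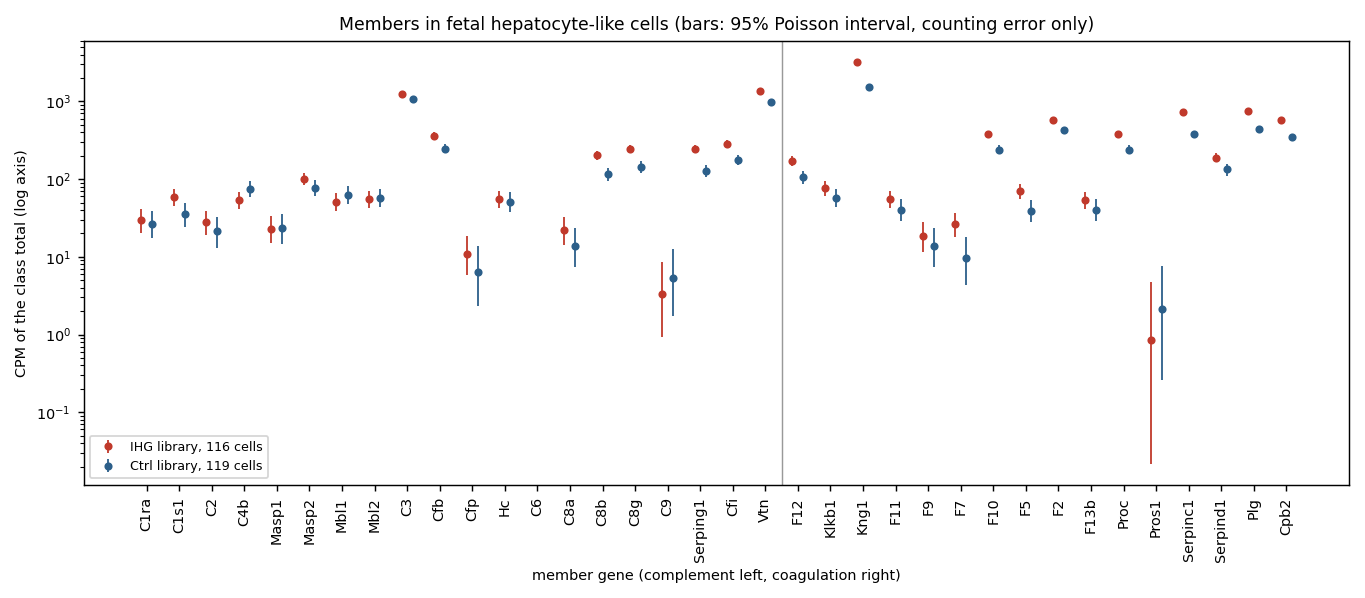
CPM of the class total (log axis) of each gene in fetal hepatocyte-like cells, in the IHG library (red, 116 cells) and the Ctrl library (blue, 119 cells), with bars for the 95% Poisson interval of counting error. Kng1 stood at 3221 CPM in IHG and 1530 CPM in Ctrl, C4b was lower in IHG, and C6, at 0 UMIs, has no point.

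The classical pathway genes gave no common direction in these cells. C1ra had 35 UMIs in IHG and 25 in Ctrl, C1s1, encoding the other C1 protease, 69 and 33, and C2, whose product joins C4b in the C3 convertase, 33 and 20. The log2 ratios were 0.14, 0.71 and 0.37 over all cells, and -0.56, 0.33 and -0.20 without the haemoglobin-rich cells, where C1ra and C2 had turned. C4b, at chr17:34728380-34743882 in mm10, encodes the C4 protein that C1s cleaves. It had 63 UMIs (53.1 CPM) in IHG and 71 UMIs (75.7 CPM) in Ctrl, the lowest log2 ratio of the 32 at -0.51 (95% interval -1.02 to -0.00). Without the haemoglobin-rich cells C4b had 55.3 CPM in IHG and 119 CPM in Ctrl, a log2 ratio of -1.10 (-1.63 to -0.58). It was lower in IHG with and without those cells.

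Of the lectin pathway genes, Masp2, encoding the protease that cleaves C4 and C2 for this pathway, had 120 UMIs in IHG and 72 in Ctrl, a log2 ratio of 0.39 that turned to -0.29 without the haemoglobin-rich cells. The mannose-binding lectins Mbl1 and Mbl2, which recognise microbial sugars, had 61 and 65 UMIs in IHG, and 59 and 54 in Ctrl. Their log2 ratios were -0.29 and -0.07 over all cells, and -0.81 (-1.37 to -0.24) and -0.70 (-1.26 to -0.13) without the haemoglobin-rich cells. Masp1, encoding the other mannose-binding lectin protease, had 27 UMIs in IHG and 22 in Ctrl, a log2 ratio of -0.05 that was not distinguishable from 0 at this depth. Over all cells the lectin genes had a median of -0.06 and the classical genes one of 0.25.

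C3, at chr17:57203970-57228136, had 1482 UMIs (1249 CPM) in IHG and 1001 UMIs (1068 CPM) in Ctrl, a log2 ratio of 0.23 over all cells, and 1266 CPM in IHG and 1572 CPM in Ctrl without the haemoglobin-rich cells, a log2 ratio of -0.31 (-0.44 to -0.19). Its direction thus depended on 8 IHG and 26 Ctrl cells. Cfb, encoding factor B, the protease of the alternative pathway's C3 convertase, had 432 UMIs in IHG and 230 in Ctrl, a log2 ratio of 0.57 that came to -0.04 without those cells. Among the terminal genes, C8b and C8g, encoding chains of the pore-forming protein C8, had 241 and 287 UMIs in IHG, and 109 and 136 in Ctrl, with log2 ratios of 0.80 and 0.74. The third C8 chain, C8a, had 26 UMIs in IHG and 13 in Ctrl (0.63). Hc, encoding C5, had 65 UMIs in IHG and 48 in Ctrl (0.09). Without the haemoglobin-rich cells the log2 ratios of C8b and C8g were 0.24 and 0.20, with intervals that held 0, and those of C8a and Hc turned to -0.10 and -0.50.

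The regulators Serping1 and Cfi were higher in IHG with and without the haemoglobin-rich cells. Serping1, encoding the C1 inhibitor that also holds back the contact proteases, lies at chr2:84765387-84775444. It had 289 UMIs in IHG and 119 in Ctrl, a log2 ratio of 0.94 (0.63 to 1.26), and 0.39 (0.06 to 0.73) without the haemoglobin-rich cells. Cfi, encoding factor I, which cleaves C3b and C4b, had 337 UMIs in IHG and 166 in Ctrl, with log2 ratios of 0.68 over all cells and 0.33 (0.04 to 0.64) without those cells, and -0.085 with cells thinned to 1000 UMIs. Vtn, at chr11:78499091-78502324, had 1626 UMIs (1371 CPM) in IHG and 914 UMIs (975 CPM) in Ctrl, a log2 ratio of 0.49 over all cells and 0.06 without those cells.

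Kng1, at chr16:23057865-23082078, had the widest separation of the contact and intrinsic clotting genes in the fetal hepatocyte-like cells, with 3820 UMIs (3221 CPM) in IHG and 1434 UMIs (1530 CPM) in Ctrl, a log2 ratio of 1.07 (0.99 to 1.16). It had UMIs in 89.7% of IHG (exact 95% interval 82.6 to 94.5) and 72.3% of Ctrl (63.3 to 80.1) hepatocyte-like cells, at median depths of 6479 and 3628 UMIs, and in 4.73% of IHG and 1.10% of Ctrl erythroid-like cells, at 14576 and 11940 UMIs. With the 102 IHG and 104 Ctrl hepatocyte-like cells that were deep enough thinned to 1000 UMIs each, the shares were 80.4% in IHG and 53.8% in Ctrl, and 0.267% in IHG and 0.0312% in Ctrl erythroid-like cells. Without the haemoglobin-rich cells the log2 ratio of Kng1 was 0.52 (0.43 to 0.61), still above that of every other coagulation gene except F7. F12 (204 UMIs in IHG and 99 in Ctrl), Klkb1, encoding plasma prekallikrein (90 and 54), F11 (66 and 38) and F9 (22 and 13) had log2 ratios between 0.39 and 0.70. Without the haemoglobin-rich cells F12 was at 0.34, and Klkb1 (-0.27), F11 (-0.07) and F9 (-0.17) turned below 0.

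The factors of the extrinsic and common pathways were all higher in IHG over all cells. F7, which starts clotting with tissue factor, had 31 UMIs in IHG and 9 in Ctrl, a log2 ratio of 1.39 with a wide interval (0.34 to 2.70). F10 lies 1498 bases from the end of F7 on chromosome 8 and encodes the protease that activates prothrombin. It had 453 UMIs in IHG and 225 in Ctrl (0.67). F2, encoding prothrombin, had 690 UMIs in IHG and 398 in Ctrl, a log2 ratio of 0.45 that came to -0.08 without the haemoglobin-rich cells. F5, encoding the cofactor of activated factor X, had 83 UMIs in IHG and 37 in Ctrl (0.82), and F13b, the carrier chain of the fibrin cross-linking factor, 63 and 38 (0.38). Without the haemoglobin-rich cells F7 was at 0.73, F10 at 0.05, F5 at 0.09 and F13b at -0.0026, with intervals that held 0.

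Of the anticoagulant genes, Serpinc1, at chr1:160978585-161005863, had 874 UMIs (737 CPM) in IHG and 352 UMIs (376 CPM) in Ctrl. Its log2 ratio was 0.97 (0.79 to 1.16) over all cells and 0.47 (0.28 to 0.67) without the haemoglobin-rich cells, so its interval lay above 0 both ways. Proc, encoding protein C, had 448 UMIs in IHG and 225 in Ctrl (0.65), and Serpind1, encoding the thrombin inhibitor heparin cofactor II, 225 and 125 (0.51). These came to 0.16 for Proc and -0.0045 for Serpind1 without the haemoglobin-rich cells, and Proc to -0.11 with cells thinned to 1000 UMIs. The fibrinolysis genes Plg, encoding plasminogen, and Cpb2, encoding the carboxypeptidase that slows fibrin breakdown, had 886 and 678 UMIs in IHG, and 417 and 325 in Ctrl. Their log2 ratios of 0.75 and 0.72 came to 0.14 and 0.20 without the haemoglobin-rich cells.

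**Figure D3:**
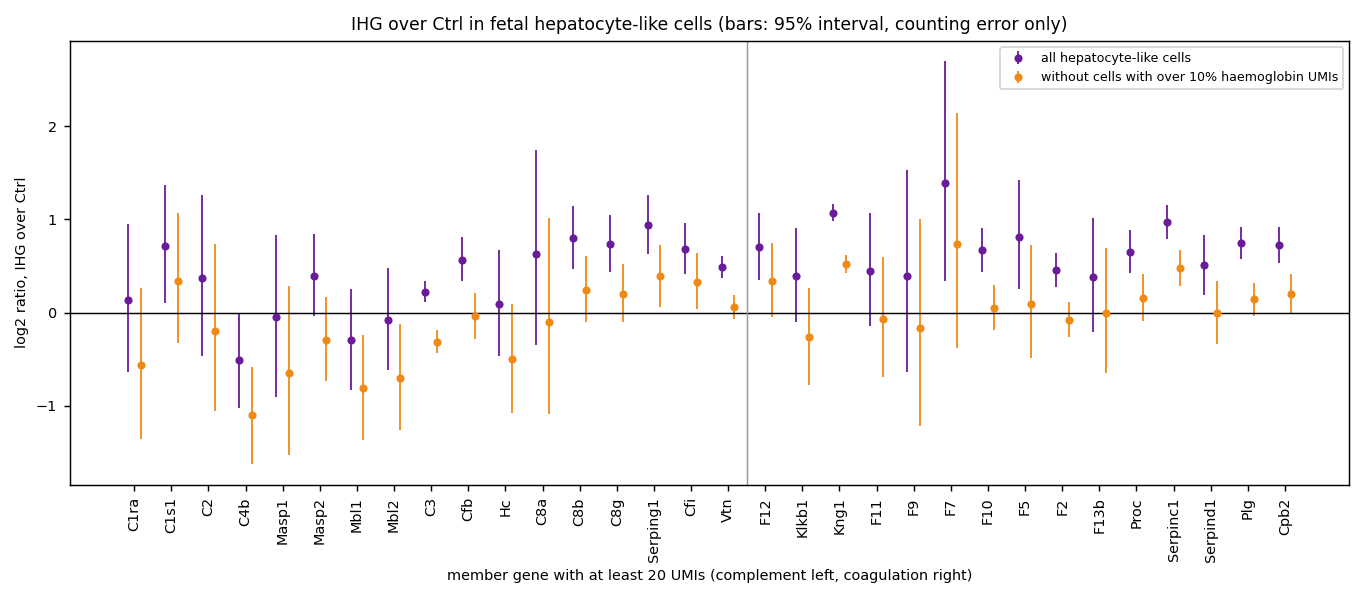
Log2 ratio of IHG over Ctrl of each measured gene in fetal hepatocyte-like cells, over all cells (purple) and without cells with over 10% haemoglobin UMIs (orange), with bars for the 95% interval of counting error. All purple coagulation points are above 0, and the orange points of C4b, C3, Mbl1 and Mbl2 have intervals below 0.

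The class itself was made of 2 clusters that the libraries filled unequally. Cluster 31 had 24 IHG and 13 Ctrl cells, holding 45.7% and 24.4% of the class's UMIs, and cluster 20 had 92 IHG and 106 Ctrl cells. The summed level of the 36 genes was 17585 CPM in IHG and 16109 CPM in Ctrl in cluster 31, and 6787 CPM in IHG and 4524 CPM in Ctrl in cluster 20. The median cell of cluster 31 held UMIs of 27 of the 36 genes in each library. Within cluster 31 the median log2 ratio was 0.11 for coagulation genes and -0.09 for complement genes. Scaled to the UMIs of the hepatocyte markers in place of the class total, it was 0.02 and -0.25. The part of cell makeup in the ratios over all cells was not tested further.

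Among the other complement and clotting genes, the fibrinogen genes were higher in IHG in fetal hepatocyte-like cells. Fibrinogen is the precursor of fibrin, and Fgb had 9919 CPM in IHG and 4522 CPM in Ctrl, Fgg 7765 and 3653 CPM, and Fga 3315 and 1911 CPM. Their log2 ratios were 1.13, 1.09 and 0.79. Kng2 (1.18), a second kininogen gene, and Hrg (1.04), encoding a histidine-rich plasma protein that binds plasminogen and heparin, were also at least 2-fold higher in IHG, while Clu (-0.44), encoding clusterin, was lower. All 13 other coagulation genes measured were higher in IHG, with a median of 0.58, and 7 of 10 other complement genes, with a median of 0.53, both above the 0.19 of all genes. Of these 10 complement genes 2 were at least 2-fold higher, where 10.1% of all genes were, with a largest log2 ratio of 6.35. These values come from all cells of the class, including the haemoglobin-rich ones. The largest ratio of the other complement genes was as high in some other fetal classes, at 7.04 in B-like, 6.48 in erythroid-like and 7.30 in neutrophil-like cells. It was lower in others, at 5.71 in monocyte-like, 3.54 in myeloid progenitor-like and 3.35 in endothelial-like cells. In stem/progenitor-like cells it was 2.45, and in stellate/fibroblast-like cells 1.57. Each value is the largest of its class and need not belong to the same gene.

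Fetal neutrophil-like cells, 2051 in IHG and 965 in Ctrl, held C3 and Cfp and low levels of F5 and F10. C3 was lower in IHG, with 214 CPM against 280 CPM in Ctrl, a log2 ratio of -0.39 (-0.46 to -0.31), and it was lower in each of the 3 clusters of the class, with 195, 255 and 134 CPM in IHG, and 279, 311 and 201 CPM in Ctrl. F10 was lower as well, with 141 UMIs (8.09 CPM) in IHG and 159 UMIs (20.3 CPM) in Ctrl, a log2 ratio of -1.32 (-1.66 to -0.99). Most of the F10 UMIs were in cluster 4, with 121 in IHG and 132 in Ctrl. Cfp did not differ beyond counting error, with 53.3 CPM in IHG and 56.2 CPM in Ctrl, and F5 had 40.3 CPM in IHG and 33.5 CPM in Ctrl, a log2 ratio of 0.26 that came to 0.00 under median-of-ratios scaling. Of the 10 genes measured here, F10 was at least 2-fold lower, where 3.42% of all 9603 genes were, and 5 hepatocyte transcripts (Vtn, Kng1, F2, Serpinc1 and Plg) were at least 2-fold higher, where 5.19% were. All 9 measured hepatocyte markers were higher in IHG in these cells too, with a median of 1.57.

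Fetal myeloid progenitor-like cells, 552 in IHG and 129 in Ctrl, had lower C3 in IHG as well. It had 460 UMIs (58.7 CPM) in IHG and 201 UMIs (130 CPM) in Ctrl, a log2 ratio of -1.15 (-1.39 to -0.90), against a median of 0.41 for the 9155 genes measured. The class had 2 clusters that the libraries filled unequally, and C3 was lower in IHG in both, with 81.4 CPM in IHG (377 cells) and 150 CPM in Ctrl (111 cells) in cluster 15, and 27.3 CPM in IHG (175 cells) and 33.6 CPM in Ctrl (18 cells, 9 UMIs) in cluster 21. Of 7 of the 36 genes measured there, C3 was at least 2-fold lower over the whole class, where 2.02% of all genes were. Its levels differed by less than 2-fold within each cluster, and the part of the cluster makeup in the value for the class was not tested. Pros1 had 22 UMIs in IHG and 0 in Ctrl, a log2 ratio of at least 0.53 against a floor of 3 counts in the class sum, where 15.9% of all genes were at least 2-fold higher. Of these 22 UMIs, 20 were in cluster 21, which had 175 IHG cells and only 18 Ctrl cells. The part of the cluster makeup in this limit was not tested. F10 had 183 UMIs in IHG and 62 in Ctrl, a log2 ratio of -0.79, which turned to 0.90 with cells thinned to 1000 UMIs. Fetal monocyte-like cells, 317 in IHG and 210 in Ctrl, showed no such difference in C3, with 226 CPM in IHG and 228 CPM in Ctrl, or in F10, with 101 CPM in IHG and 103 CPM in Ctrl. Their F5 was higher in IHG, with 61.8 CPM against 36.2 CPM in Ctrl, a log2 ratio of 0.76 (0.35 to 1.21) that came to 0.31 with cells thinned to 1000 UMIs, and their Cfb was lower, with 36 UMIs (9.89 CPM) in IHG and 30 UMIs (18.4 CPM) in Ctrl, at -0.90 (-1.64 to -0.15). Of 7 genes measured in monocyte-like cells, 2 were at least 2-fold higher in IHG (Kng1, with 23 UMIs in IHG and 1 in Ctrl, and Pros1, with 29 and 6), where 4.9% of 8735 genes were, and none was at least 2-fold lower, where 2.88% were. All 8 measured hepatocyte markers were higher in IHG in these cells as well. F13a1, encoding the catalytic chain of the fibrin cross-linking factor, had 697 CPM in IHG monocyte-like cells and 387 CPM in Ctrl, a log2 ratio of 0.85.

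Macrophage-like cells were found almost wholly in fetal IHG, with 348 cells against 6 in Ctrl, so they allow no comparison, and a class of 1 library cannot be told apart from that library. In IHG these cells had UMIs of all 7 macrophage markers. They held Cfp, whose product stabilises the alternative pathway's convertase, with 1281 UMIs (681 CPM). They also held 128 of the 139 UMIs of C6, encoding a membrane attack protein, where hepatocyte-like cells of the same library had 0 among 1186093 UMIs, and C2, with 111 UMIs (59.0 CPM). Megakaryocyte-like cells, 70 in IHG and 9 in Ctrl, had F10 at 140 CPM and F5 at 110 CPM in IHG, with 28.1% and 47.5% of the UMIs in 1 cell.

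Pros1, at chr16:62854307-62929346, had its highest CPM in endothelial-like cells in all 4 libraries, and they held 41.7% of its UMIs in fetal IHG and 41.0% in fetal Ctrl. In adults they held 16.7% in IHG and 23.5% in Ctrl, and cholangiocyte-like cells, at 19.6 CPM in IHG and 27.7 CPM in Ctrl, held 15 of its 60 UMIs in IHG and 51 of its 102 UMIs in Ctrl. Stellate/fibroblast-like cells held 16 UMIs (49.2 CPM) in IHG and 12 UMIs (66.2 CPM) in Ctrl. In fetal endothelial-like cells it had 96.8 CPM in IHG (99 cells) and 74.4 CPM in Ctrl (22 cells), a log2 ratio of 0.34 (-0.38 to 1.24), and UMIs in 62.6% of IHG and 45.5% of Ctrl cells. Erythroid-like cells had Pros1 UMIs in 0.166% of cells in IHG and 0.0306% in Ctrl, at median depths of 14576 and 11940 UMIs, against 9958 and 9572 UMIs in endothelial-like cells. In adult endothelial-like cells it had 10 UMIs (141 CPM) in IHG and 24 UMIs (197 CPM) in Ctrl, a log2 ratio of -0.44 (-1.71 to 0.64). The interval held 0 at both ages, and backgrounds were wide in these small classes: 11.6% of 6551 genes were at least 2-fold higher and 5.42% lower in the fetus, and 8.46% of 1548 genes higher and 6.91% lower in adults. Masp1 had 15 UMIs (212 CPM) in IHG and 10 UMIs (82.2 CPM) in Ctrl in these adult cells, a log2 ratio of 1.34 (0.12 to 2.68), and the ratio turned to -0.45 when each library was clustered by itself. Over the same class, F8, encoding the antihaemophilic factor, had 288 CPM in IHG and 195 CPM in Ctrl in the fetus. In adults it had 819 CPM in IHG and 658 CPM in Ctrl. Vwf, encoding its carrier in plasma, was at least 2-fold lower in adult IHG, with 325 CPM against 707 CPM in Ctrl. Endothelial markers also differed between these adult libraries, in both directions. Lyve1 had 21 UMIs (297 CPM) in IHG and 4 UMIs (32.9 CPM) in Ctrl, and Ptprb 1978 CPM in IHG and 2689 CPM in Ctrl. The part of cell makeup in the Vwf value was not tested.

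Fetal stellate/fibroblast-like cells, 71 in IHG and 40 in Ctrl, expressed 7 of the genes above the minimum. C3 was higher in IHG, with 181 UMIs (447 CPM) against 27 UMIs (120 CPM) in Ctrl, a log2 ratio of 1.88 (1.31 to 2.54). C1ra had 20 UMIs in IHG and 4 in Ctrl (1.34, -0.10 to 3.48), and these 2 genes were at least 2-fold higher, where 11.4% of 4074 genes were. Serping1 had 136 UMIs (336 CPM) in IHG and 52 UMIs (231 CPM) in Ctrl, a log2 ratio of 0.53. Masp1, at chr16:23449417-23520815, was lower in IHG, with 31 UMIs (76.6 CPM) against 34 UMIs (151 CPM) in Ctrl, at -0.98 (-1.73 to -0.23), and at -2.01 as a mean over cells. Serping1 came to -0.079 as such a mean. None of the 7 was at least 2-fold lower, where 2.8% of genes were.

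C3 in this class came with mesothelial markers. All 7 markers of mesothelial cells, which line the liver's surface, had UMIs in the class, 614 UMIs (1517 CPM) in IHG and 133 UMIs (591 CPM) in Ctrl, and both Lrat and Reln, markers of stellate cells, were present, with 11 and 70 UMIs in IHG, and 19 and 45 in Ctrl. Cells with at least 1 mesothelial marker UMI numbered 12 in IHG and 2 in Ctrl, and they held 180 of the 181 C3 UMIs in IHG and 24 of the 27 in Ctrl. C2 and C1ra were also mostly in them in IHG, with 28 of 29 and 17 of 20 UMIs. In the other 59 IHG and 38 Ctrl cells, C3 had 1 UMI in IHG and 3 UMIs in Ctrl. Masp1 was distributed the other way, with 29 of its 31 UMIs in IHG and 33 of its 34 UMIs in Ctrl in cells without a mesothelial marker UMI, where it had 136 CPM in IHG and 194 CPM in Ctrl. Serping1 had 131 CPM in IHG and 176 CPM in Ctrl in those cells. A single Ctrl cell held 81.5% of the Ctrl C3 UMIs, and without the cell of each library richest in the 36 genes the log2 ratio of C3 was 3.64. Of the 2 Ctrl cells with mesothelial marker UMIs, 1 had 132 of them and the other had 1 among 35555 UMIs. Among the 12 IHG cells, those with 23217, 14333 and 16080 UMIs also had only 1 mesothelial marker UMI each. This division of the class was chosen after the values had been seen.

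**Figure D4:**
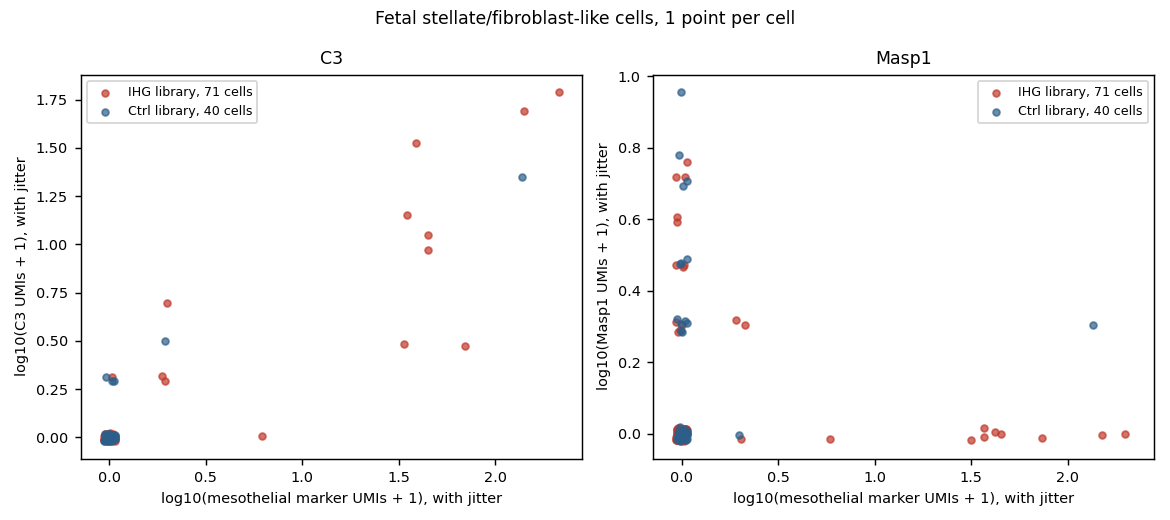
UMIs of C3 (left) and Masp1 (right) against the summed UMIs of 7 mesothelial markers, as log10 of UMIs plus 1 with small random shifts, with 1 point per fetal stellate/fibroblast-like cell (red, 71 IHG cells, and blue, 40 Ctrl cells). C3 UMIs are mostly in the cells with mesothelial marker UMIs, which number 12 in IHG and 2 in Ctrl, and Masp1 UMIs are mostly in cells without them.

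At 8 weeks no class was named hepatocyte-like, and 31 of the 36 genes had UMIs in the kept cells in IHG and 30 in Ctrl. The hepatocyte markers Ttr and Alb were among the leading genes of the cholangiocyte-like cluster. Ahsg, another such marker, was among those of an unnamed cluster of 23 IHG cells. Whether these UMIs came from hepatocytes was not tested. The adult levels are those of classes named as stromal, biliary, endothelial and immune, and no level is given for adult hepatocytes. The summed level of the 36 genes was highest in mesothelial-like cells, with 10552 CPM in IHG (34 cells) and 11072 CPM in Ctrl (73 cells). It was 5794 CPM in IHG (62 cells) and 7999 CPM in Ctrl (44 cells) in stellate/fibroblast-like cells, and 956 CPM in IHG (87 cells) and 828 CPM in Ctrl (191 cells) in cholangiocyte-like cells.

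In adult mesothelial-like cells C3 and Serping1 did not differ between IHG and Ctrl beyond counting error. C3 had 5999 CPM in IHG and 5864 CPM in Ctrl, a log2 ratio of 0.03 (-0.05 to 0.11), and Serping1 had 1712 CPM in IHG and 1735 CPM in Ctrl, a log2 ratio of -0.02 (-0.17 to 0.13). The classical pathway genes were lower in IHG. C4b had 1066 CPM in IHG and 1422 CPM in Ctrl (-0.41, -0.60 to -0.23), C1s1 493 and 651 CPM (-0.40, -0.68 to -0.13), and C1ra 306 and 427 CPM (-0.47, -0.84 to -0.13), while C2, with 616 CPM in IHG and 687 CPM in Ctrl (-0.16), was within counting error. Cfb was higher in IHG, with 353 CPM against 266 CPM in Ctrl (0.41, 0.04 to 0.77). None of the 7 measured genes differed by 2-fold, where 3.15% of 5498 genes were higher and 5.18% lower by that much, and their median was -0.16, against -0.01 for all genes. The class had 2 clusters. In the larger one (28 IHG and 55 Ctrl cells) C4b had 1251 CPM in IHG and 1803 CPM in Ctrl, and in the smaller one (6 and 18 cells) it had 174 CPM in IHG and 139 CPM in Ctrl, so that the lower level in IHG was seen in the larger cluster only.

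In adult stellate/fibroblast-like cells all 8 measured genes were lower in IHG, and C4b was the one that differed by more than 2-fold. It had 50 UMIs (154 CPM) in IHG and 157 UMIs (867 CPM) in Ctrl, a log2 ratio of -2.48 (-2.98 to -2.03), where 6.78% of 3213 genes were at least 2-fold lower and 8.96% at least 2-fold higher. C4b UMIs were in 21.0% of IHG (exact 95% interval 11.7 to 33.2) and 63.6% of Ctrl (47.8 to 77.6) cells, at median depths of 5714.5 and 4120 UMIs, and in 13.8% of the 58 IHG and 41.5% of the 41 Ctrl cells that could be thinned to 1000 UMIs. T-like cells had C4b UMIs in 0.0613% of cells in IHG and 0.194% in Ctrl, at median depths of 2850 and 2917 UMIs. The cell richest in C4b held 24.0% of these UMIs in IHG and 20.4% in Ctrl, and the log2 ratio stayed between -2.52 and -2.24 over the 14 alternatives run for it.

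The other genes of these cells differed less. C3 had 2623 CPM in IHG and 3594 CPM in Ctrl (-0.45, -0.60 to -0.30), Serping1 had 1799 CPM in IHG and 2191 CPM in Ctrl (-0.29, -0.47 to -0.10), and the intervals of both lay below 0. C1s1, with 609 CPM in IHG and 629 CPM in Ctrl, and C1ra, with 440 and 491 CPM, were within counting error. The median of the 7 complement genes was -0.29, against -0.04 for all genes. Some other complement genes differed more: Clu had 108 CPM in IHG and 420 CPM in Ctrl (-1.95), and C7, encoding a membrane attack protein, 154 and 326 CPM (-1.08), whereas Cd55, encoding a convertase inhibitor on the cell surface, had 264 CPM in IHG and 71.8 CPM in Ctrl (1.84). The class had no UMI of Lrat or Reln in either library, and Dcn, a fibroblast proteoglycan gene, had 13443 CPM in IHG and 16842 CPM in Ctrl. Of the 7 mesothelial markers 6 were at 0 in each library, with only Wt1 detected. Hepatocyte markers were at 55.4 CPM in IHG and 193 CPM in Ctrl in these cells, and their part in the C4b difference was not tested.

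**Figure D5:**
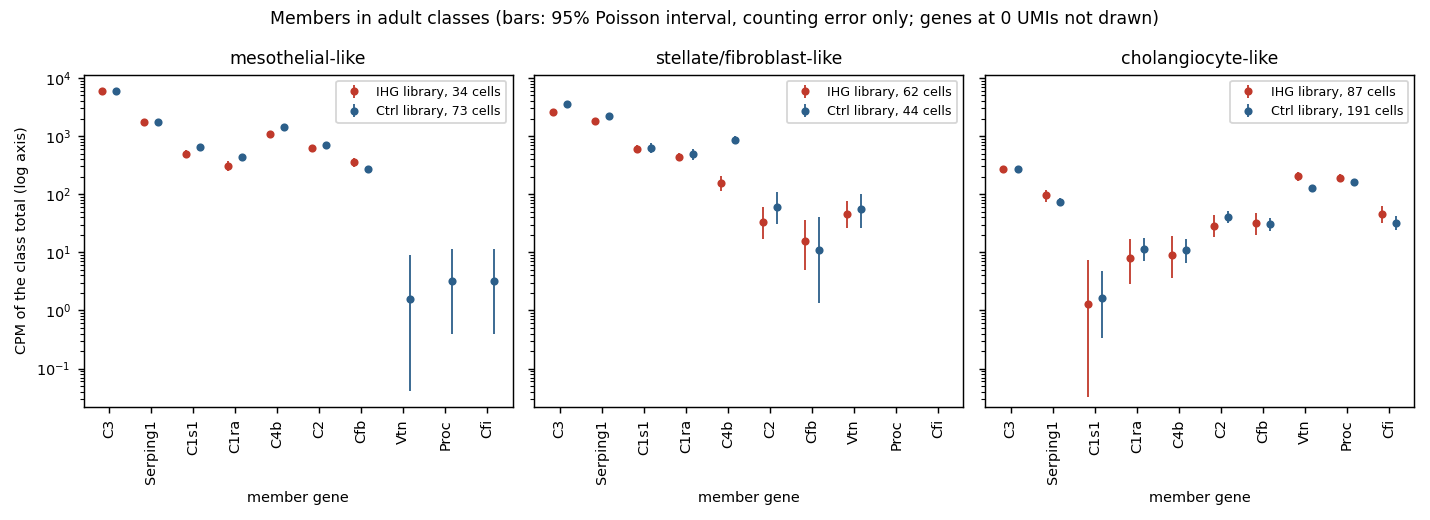
CPM of the class total (log axis) of 10 of the genes in adult mesothelial-like, stellate/fibroblast-like and cholangiocyte-like cells, in the IHG library (red) and the Ctrl library (blue), with bars for the 95% Poisson interval of counting error and no point for a gene at 0 UMIs. C4b in stellate/fibroblast-like cells stands at 154 CPM in IHG and 867 CPM in Ctrl, and C3 in mesothelial-like cells at 5999 and 5864 CPM.

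Adult cholangiocyte-like cells, the lining cells of bile ducts, had 11 measured genes, of which 7 were higher in IHG, and the median log2 ratio was 0.06, against -0.00 for all genes. None differed by 2-fold, where 1.6% of 8795 genes were higher and 2.15% lower by that much. C3 had 270 CPM in IHG and 266 CPM in Ctrl, and Proc 190 CPM in IHG and 163 CPM in Ctrl (0.23, -0.07 to 0.52). Vtn had 202 CPM in IHG and 126 CPM in Ctrl (0.68, 0.38 to 0.98), but 1 IHG cell held 35.5% of its UMIs, and without the richest cell of each library the ratio was 0.05. Hepatocyte markers stood at 5131 CPM in IHG and 4575 CPM in Ctrl in this class, with UMIs of 10 of 11 markers in IHG and 11 of 11 in Ctrl, and their part in these levels was not tested.

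Among adult immune cells, monocyte-like cells held F10, with 117 UMIs (166 CPM) in IHG and 54 UMIs (107 CPM) in Ctrl, a log2 ratio of 0.62 (0.15 to 1.12), and of 0.14 as a mean over cells. C3 had 156 CPM in IHG and 143 CPM in Ctrl, and Cfp 75.3 CPM in IHG and 87.4 CPM in Ctrl, both within counting error. None of these 3 genes differed by 2-fold, where 2.95% of 4675 genes were higher and 2.1% lower by that much. Cfp was held at 127 CPM in IHG and 146 CPM in Ctrl by dendritic-like cells, again within counting error. The genes for C1q, which starts the classical pathway, were lower in IHG in monocyte-like cells, with C1qa at 28.4 CPM in IHG and 193 CPM in Ctrl (-2.73), C1qb at 27.0 and 312 CPM (-3.50) and C1qc at 7.11 and 185 CPM (-4.57). Of the 7 macrophage markers, 6 were at 0 in this class in each library, and Adgre1 had 29 UMIs in IHG and 39 in Ctrl.

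Levels at 8 weeks and in the fetus were set side by side within a class, although perfusion, depth and cell makeup also differed between the ages. In stellate/fibroblast-like cells C1ra, C1s1, C4b and C3 were higher in adults in both groups, while C2 had 33.8 CPM in adult and 71.7 CPM in fetal IHG cells. C4b had 154 CPM in adult and 14.8 CPM in fetal IHG cells, and 867 CPM in adult and 8.88 CPM in fetal Ctrl cells, log2 ratios of adult over fetal of 3.27 (2.15 to 4.89) and 6.29 (4.73 to 9.67), the second resting on 2 fetal UMIs. C3 had log2 ratios of 2.55 in IHG and 4.88 in Ctrl, Serping1 of 2.42 and 3.23, and C1s1 of 4.19 and 4.07. Masp1 ran the other way, with 0 UMIs in adult against 31 in fetal IHG cells and 2 UMIs in adult against 34 in fetal Ctrl cells. Lrat and Reln were present in the fetal class and at 0 in the adult class. Mesothelial markers other than Wt1 were also at 0 in the adult class. In fetal IHG, 12 cells with mesothelial marker UMIs held 28 of the 29 C2 UMIs and 180 of the 181 C3 UMIs. The other 59 fetal IHG cells had 1 UMI of C2 (4.69 CPM), against 33.8 CPM in the adult IHG class. The part of this cell makeup in the differences between the ages was not tested. In monocyte-like cells F5 was lower in adults, with log2 ratios of -2.74 in IHG and -1.74 in Ctrl, while C3 and Cfp differed less, with -0.52 and 0.30 in IHG, and -0.66 and 0.40 in Ctrl.

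Reads of near-identical or overlapping genes limit some values. Of the 31-base words in the last 500 bases of C4b transcripts, 57.7% also occur in C4a, which had 24 UMIs in all classes together against 1636 for C4b. The shares were 23.4% for C1ra with C1rb, 17.0% for Kng1 with Kng2 and 12.01% for C1s1 with C1s2. C2 and Cfb lie 85 bases apart on the minus strand of chromosome 17, inside the annotated gene Gm20547, and Klkb1, F5, Serpinc1 and Cpb2 also overlap another gene on their strand, so reads there could be shared out or lost.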

How the data were processed

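Male mouse offspring livers were measured by 10x 3′ single-cell sequencing, with 1 library for each of 4 groups. Per the labels' protocols, livers pooled from 3 pregnant mice or 3 adults were digested with collagenases, hyaluronidase and DNase, red cells were lysed, and adult livers were perfused through the portal vein. The deposited values are UMI counts per gene and barcode, not normalized by the authors, and the file headers name Cell Ranger 5.0.0 as their source. The submitters' processing notes name mm10, Cell Ranger and Seurat. Whether intronic reads were counted is not given in the sources used here.

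Barcodes with under 300 genes or over 25% mitochondrial UMIs were dropped, and doublets were removed per library with Scrublet (scanpy 1.11.5), by the 95th percentile of the score in the adult libraries, where its own threshold marked under 0.5% of cells. IHG and Ctrl cells of each age were clustered jointly, with no batch integration (2000 variable genes without the 36 genes and other pathway genes, 30 components, 15 neighbours, Leiden resolution 1; leidenalg 0.10.2, igraph 0.11.9, scikit-learn 1.9.0). Names ending in "-like" rest on markers of 19 classes, with the score and tie rules set after the clusters were seen. For each class of each library, UMIs were summed and divided by the class's total. Ratios have 0.5 added to each count, exact conditional Poisson 95% intervals, and a floor of 3 counts per class sum, and are given for classes with at least 20 cells in each library. Shares of cells have exact Clopper-Pearson intervals. No test was made, since cells are not replicates. The computations used matplotlib 3.10.9, pandas 2.3.3, numpy 2.4.6, scipy 1.17.1 and Python 3.11.15. In class sums simulated as Poisson counts, 96.5% of 5838 fetal hepatocyte-like and 96.7% of 3240 adult stellate/fibroblast-like intervals covered the true ratio. The simulation had no spread between cells or animals, so it checks the computation and not whether the intervals are wide enough for these data. Positions are those of GENCODE M21 (mm10), and promoters those of RefSeq.

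All 36 genes could be named, other pathway genes with at least 100 CPM in 1 class of 1 library, and hepatocyte markers and haemoglobin genes where a result turned on them. The 36 genes, the lists and the marker sets were chosen with earlier results of these data known.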

Additional observations from a re-analysis of the deposited data

Results flagged for a closer look

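C3 differed in opposite directions at the 2 ages in stellate/fibroblast-like cells. Its log2 ratio of IHG over Ctrl was -0.45 in adults, where C3 had 2623 CPM in IHG and 3594 CPM in Ctrl, and 1.88 in the fetus, where it had 447 CPM in IHG and 120 CPM in Ctrl. Serping1 did so as well, with a log2 ratio of -0.29 in adults (1799 CPM in IHG and 2191 CPM in Ctrl) and 0.53 in the fetus (336 CPM in IHG and 231 CPM in Ctrl). The fetal Serping1 value was -0.079 as a mean over cells. In the fetal cells without a mesothelial marker UMI, C3 had 1 UMI (4.69 CPM) in IHG and 3 UMIs (17.6 CPM) in Ctrl. These counts are below the minimum for a measured gene, so C3 gave no direction there. Serping1 had 28 UMIs (131 CPM) in IHG and 30 UMIs (176 CPM) in Ctrl in those cells, and no counting interval is given. This division of the cells was chosen after the values had been seen. The differences between the ages were not tested, since each group had 1 library. The fetal class held mesothelial marker UMIs at 1517 CPM in IHG and 591 CPM in Ctrl, and the adult class had 6 of those 7 markers at 0 in each library. The part of the mesothelial cells in the opposite directions was not tested.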

How the results depend on the processing

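The medians of fetal hepatocyte-like cells depended on which cells were summed and on the scaling. The complement median, 0.39 as reported, was -0.20 without cells with over 10% haemoglobin UMIs, -0.087 in cluster 31, -0.25 scaled by hepatocyte markers, and, without the haemoglobin-rich cells, -0.50 in cluster 20, -0.24 in cluster 31 and -0.30 scaled by hepatocyte markers. The coagulation median, 0.67 as reported, was 0.093 without those cells, 0.11 in cluster 31, 0.037 in cluster 31 without those cells, 0.025 scaled by hepatocyte markers and 0.20 with cells thinned to 1000 UMIs. It turned to -0.037 in cluster 20 and to -0.0023 under hepatocyte marker scaling, both without those cells. The settings by cluster, by hepatocyte markers and by the mean over cells in other classes were chosen after seeing the data. Of the 28 genes above 0 in this class, 13 turned without the haemoglobin-rich cells; those of the 13 whose interval had lain above 0 over all cells were C3 (-0.31), Cfb (-0.040), F2 (-0.079) and Serpind1 (-0.0045). C3 came to -0.033 without mitochondrial, ribosomal and haemoglobin genes in the total, and Cfi (-0.085) and Proc (-0.11) turned with thinned cells. Elsewhere, F10 in myeloid progenitor-like cells came to 0.90 when thinned, Serping1 in fetal stellate/fibroblast-like cells to -0.079 as a mean over cells, and Masp1 in adult endothelial-like cells to -0.45 with each library clustered by itself. Of the other values of single genes under an alternative, 1160 stayed within the limits set and 105 moved beyond them. Fetal stellate/fibroblast-like cells gave no value under several regroupings (stricter filters, doublets kept, other resolutions, separate clustering) or when thinned. No paired analysis was possible because each group had 1 library. There is no replicate check, and low counts limit C9, C6, C8a, F7 and F9, among others. The causes of these shifts were not tested.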
